A study of Mus musculus with 10 samples.

Results

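Endothelial identity genes were followed in dental mesenchyme from lower incisors of mice, the soft pulp tissue inside a tooth that grows throughout life. The group holds 35 genes that are characteristic of the cells lining blood and lymph vessels, listed by name, among 18193 genes measured. All 35 were found, through 61 probe sets, and where several probe sets measured a gene the one with the greatest average across the 10 arrays was taken. The samples were total RNA from wild-type C57BL/6J mice at postnatal day 60. In each of 5 mice the inferior alveolar nerve, which carries sensation from the lower teeth, had been resected on 1 side 2 weeks earlier. The incisor of that side is called denervated here and the incisor of the other side, whose nerve was not resected, contralateral, with 5 arrays each. Every animal had been operated, and with no sham-operated group here the effects of nerve loss and of surgery cannot be told apart. The sex of the animals is labelled as not determined. Arrays of equal number were taken as the incisors of 1 mouse.

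Endothelial cells form the inner lining of vessels and are held together by junctions built from VE-cadherin and claudin 5. Their identity is set by Ets factors such as ERG and by the SoxF factors SOX7, SOX17 and SOX18. Growth and stability are governed by receptor tyrosine kinases for vascular endothelial growth factors and angiopoietins. In the tooth pulp, vessels enter through the root end beside the nerve bundles and end in a dense capillary bed under the odontoblasts, the cells that make dentin.

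The values are log2 intensities, and each signed difference is denervated minus contralateral on this scale. Array medians lay between 1.48 and 1.54 over all probe sets, and for 40.7% of the 18193 genes the average was under 2, close to the bottom of the range. Of the endothelial genes 22 had a mean of at least 4, 10 a mean between 2 and 4, and 3 (Selp, Tal1 and Mmrn1) a mean below 2. The samples are labelled dental mesenchyme, and the odontoblast gene Dspp had a mean of 12.16. The enamel protein gene Ambn, with 12.69, gave a strong signal as well, so that epithelial RNA was present (9.61 on denervated array 3 and at least 12.91 elsewhere). Denervated arrays 2 and 3 stood apart from the other arrays in the endothelial genes and in several other cell type lists, so results are also given without them. In tissue RNA, a change in the number of endothelial cells and a change in the RNA of each cell cannot be told apart.

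Most endothelial genes had higher values in the denervated incisors of mice 2 and 3, and slightly lower ones in those of mice 1, 4 and 5. This division was seen in the values and is no grouping of the study, so it is described without a test. The member score, the mean over the 35 genes of values centred per gene, was -0.0044, 0.38, 0.44, -0.31 and -0.14 on denervated arrays 1 to 5. On contralateral arrays 1 to 5 it was 0.11, -0.12, -0.11, -0.20 and -0.05. The denervated arrays held both the highest and the lowest score, and the groups overlapped. The within-mouse difference of the score was -0.12, 0.51, 0.55, -0.11 and -0.09 in mice 1 to 5, against -0.02, 0.07, 0.08, 0.01 and -0.0011 over all genes. The group means were 0.07 ± 0.33 for denervated and -0.07 ± 0.12 for contralateral arrays (SD, n = 5), so the difference of 0.15 was smaller than the spread of the denervated arrays.

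**Figure D1:**
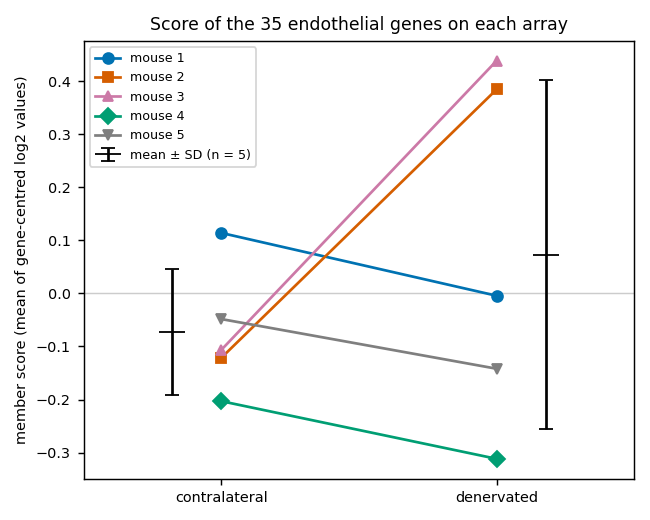
Member score of the 35 endothelial genes on each array (vertical axis, mean of gene-centred log2 values), with lines joining the incisors of a mouse and black bars for the group mean and SD (n = 5). The scores of denervated arrays 2 and 3, 0.38 and 0.44, lie above all contralateral arrays, while those of denervated arrays 4 and 5 lie at -0.31 and -0.14.

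Counted by gene, 32 of 35 were higher in the denervated incisor of mouse 2 and 34 of 35 in that of mouse 3, where 57.6% and 60.0% of all genes were higher. In mice 1, 4 and 5 only 10, 13 and 12 of 35 were higher, against 46.1%, 52.4% and 48.1% of all genes. For 10 members the sign was positive in mice 2 and 3 and negative in all other animals, against 5.82% of all genes. A difference above 0.5 was found for 16 members in mouse 2 (8.79% of all genes) and 18 in mouse 3 (9.82%), for 2 in mouse 5 (3.23%) and for 0 in mice 1 (0.923%) and 4 (1.88%). A difference below -0.5 was found for 1, 2, 0, 2 and 1 members in mice 1 to 5, against 1.3%, 4.41%, 3.92%, 1.17% and 2.07% of all genes. For 20 of the 35 genes denervated arrays 2 and 3 were the 2 highest of the 10 arrays, a pattern held by 12.6% of all genes, and either of them was the highest for 28 members (36.9%). Denervated array 4 gave the lowest value for 11 members, against 7.05% of all genes. The SD among denervated arrays exceeded that among contralateral arrays in 30 of 35 members (57.4% of all genes), with median SDs of 0.43 and 0.22, against 0.16 and 0.15 over all genes.

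Over all arrays 30 of the 35 genes averaged higher on the denervated side (55.8% of all genes), with a median difference of 0.16, against 0.02 over all genes. After quantile normalization 25 of 35 were higher (50.2% of all genes) with a median of 0.07, and after centring each array on its median over genes 21 of 35 (26.9% of all genes) with a median of 0.06. Quantile normalization turned Emcn, Kdr, Flt1, Robo4 and Plvap below 0, and median centring these and Cdh5, Esam, Aplnr and Vwf. Median centring moved the median difference of all genes from 0.02 to -0.08. Without denervated arrays 2 and 3 only 10 of 35 were higher and the median was -0.08, and without both arrays of mice 2 and 3 these values were 8 of 35 and -0.10. Leaving out only denervated array 2 gave a median of 0.07, and only denervated array 3 a median of 0.06.

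None of the endothelial genes was called by limma at an adjusted p of 0.05 (Benjamini-Hochberg over 18193 genes), nor was any other gene (0.0%), with adjusted p between 0.790 and 0.991 for the members. With the mouse as a block 0 members and 0.0% of all genes passed, with members' adjusted p from 0.468 upwards. An unadjusted p under 0.05 was reached by 2 members, Tal1 and Cd93, against 6.21% of all genes (1129 genes), and with the block by 3, with Pecam1 added, against 9.92%. All of these were higher in the denervated group, where 4.1% of all genes (6.99% with the block) reached that p, while 0 members were lower at that p, against 2.11% and 2.93%. The groups did not separate completely for any member, while all denervated arrays lay above all contralateral ones in 0.528% of all genes and below in 0.423%. Tal1 alone was higher in all 5 mice (6.58% of all genes), and 0 members were lower in all 5 (3.8%). The differences below are therefore given without a call.

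**Figure D2:**
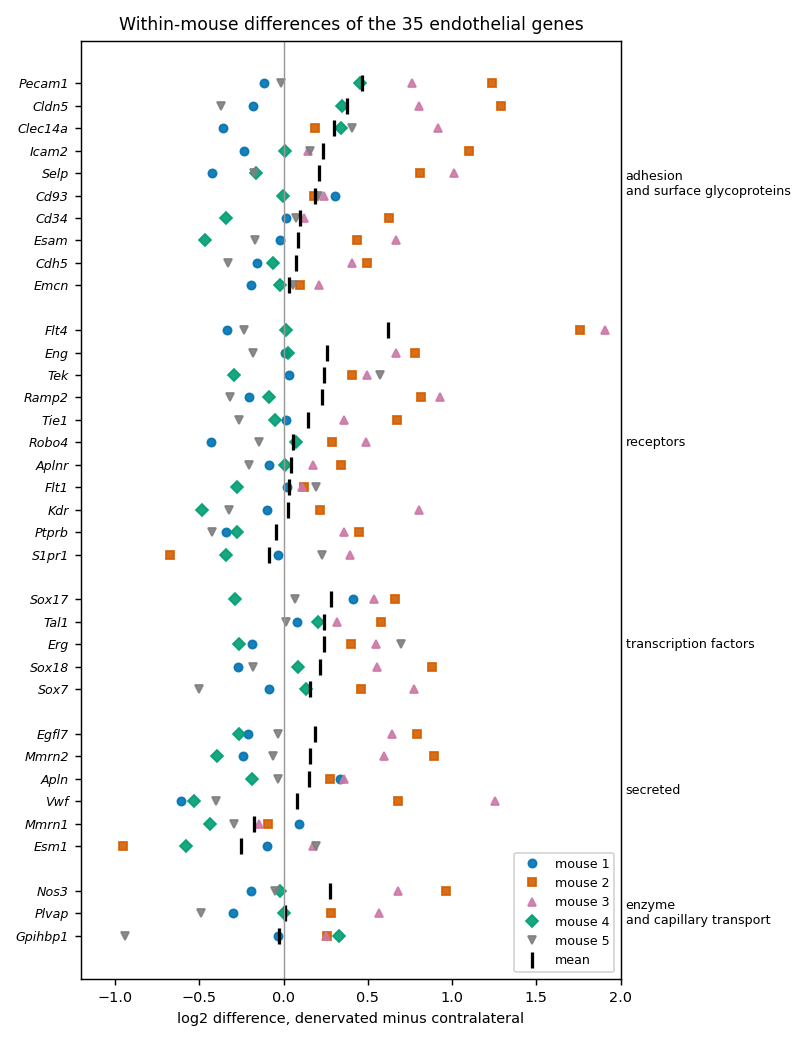
Within-mouse log2 difference, denervated minus contralateral, of each of the 35 endothelial genes (rows, grouped by role), 1 symbol per mouse and a black tick for the mean. Mice 2 and 3 lie to the right of 0 for 32 and 34 genes, while the other mice scatter around or below 0.

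Genes of adhesion and the cell surface numbered 10, all of them higher on average, with a median of 0.20 and 10 of 10 higher in mouse 2 and in mouse 3. Without denervated arrays 2 and 3 only 3 of the 10 were higher and the median was -0.02. Pecam1, which encodes the adhesion molecule CD31 of endothelial junctions and platelets, had 3.67, 4.76, 3.97, 3.78 and 3.35 on denervated arrays 1 to 5 and 3.79, 3.53, 3.21, 3.33 and 3.36 on the contralateral ones. Denervated arrays 2 and 3 lay above the contralateral range and the other 3 within it. The difference was 0.46 ± 0.22 (SE; adjusted p = 0.790, limma). Cldn5, the tight junction gene, had 5.14, 5.50, 5.22, 4.01 and 3.92 on denervated arrays 1 to 5 and 5.32, 4.21, 4.42, 3.66 and 4.29 on contralateral arrays 1 to 5. Both incisors of mouse 1 were high and both of mouse 4 low, and the groups overlapped. Its difference was 0.38 ± 0.36.

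Cd93, a surface lectin of endothelial and myeloid cells, was among the steadiest members with the probe set used. It had 7.07, 6.77, 7.03, 6.89 and 7.03 in denervated and 6.77, 6.59, 6.79, 6.89 and 6.83 in contralateral incisors of mice 1 to 5. It was higher in 4 of 5 mice and level in mouse 4, with a difference of 0.19 ± 0.08 (unadjusted p = 0.0462, adjusted p = 0.790, limma). A further probe set of Cd93 with a mean of 6.68 gave 0.15, but was less steady, with -0.18, 0.54, 0.33, -0.05 and 0.11 in mice 1 to 5. The remaining Cd93 probe sets, with means of 1.78, 1.54 and 1.17, gave 0.10, -0.02 and -0.07. Emcn, the endomucin gene of capillary and venous endothelium, had 5.79, 5.80, 6.10, 5.61 and 6.11 against 5.98, 5.70, 5.89, 5.63 and 6.05, with a difference of 0.03 (95% confidence interval -0.23 to 0.29). The sides of a mouse differed by at most 0.21, and the groups overlapped across their range. Cdh5, which encodes VE-cadherin, differed by 0.07 (-0.24 to 0.38), with values of -0.16, 0.50, 0.41, -0.06 and -0.33 by mouse. The other members of this role, Esam, Icam2, Clec14a, Cd34 and the near-background Selp, had differences from 0.09 to 0.30.

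Of the receptors 9 of 11 had a higher mean and 2 a lower one, with a median of 0.05. In mouse 2 the difference was above 0 for 10 of them and in mouse 3 for all 11, and without denervated arrays 2 and 3 for 3 of 11 (median -0.12). Flt4, the receptor for VEGF-C that marks lymphatic and growing or fenestrated blood vessels, had the widest range of all members. Its values were 4.21, 5.67, 6.00, 3.89 and 4.05 on denervated arrays 1 to 5 and 4.55, 3.91, 4.09, 3.88 and 4.28 on contralateral arrays 1 to 5. Arrays 2 and 3 of the denervated side were above all others by over 1 log2 unit, and the remaining 3 lay within the contralateral range. The difference was 0.62 ± 0.39 (adjusted p = 0.804), and -0.09 without denervated arrays 2 and 3. The other Flt4 probe set, with a mean of 1.35, differed by -0.14.

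Eng, the endoglin gene for a TGF-beta co-receptor, had 4.94, 5.89, 5.84, 5.12 and 5.00 in denervated and 4.93, 5.11, 5.17, 5.09 and 5.18 in contralateral incisors. The contralateral values spanned a narrow band and again only denervated arrays 2 and 3 left it. The difference was 0.26 ± 0.19, and 0.10 with its other probe set. Aplnr, the apelin receptor gene, had 7.49, 7.15, 7.75, 7.32 and 7.30 against 7.58, 6.81, 7.57, 7.32 and 7.50, a difference of 0.05 (-0.30 to 0.40). Its groups overlapped, with the lowest value on contralateral array 2. The other Aplnr probe set, with a mean of 3.24, differed by -0.10 and was higher only in mouse 2 (0.43). Ptprb, a phosphatase that restrains signalling by the angiopoietin receptor TIE2, had 5.97, 6.70, 6.38, 5.66 and 5.78 against 6.31, 6.25, 6.02, 5.94 and 6.21. It was higher in mice 2 and 3 and lower in the other 3, which left a difference of -0.05 (-0.45 to 0.35). A further Ptprb probe set, with a mean of 6.11, was not higher in mouse 2 (-0.08 there and 0.34 in mouse 3) and differed by -0.025 over all.

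Of the other receptors for vascular endothelial growth factor and angiopoietin, Kdr, the main VEGF-A receptor gene, differed by 0.02 (-0.34 to 0.38) and Flt1, whose product also acts as a decoy for VEGF-A, by 0.03 (-0.23 to 0.29). Tek, which encodes TIE2, differed by 0.24 (-0.22 to 0.71; 0.07 without contralateral array 5) and its partner Tie1 by 0.15 (-0.32 to 0.61). In mouse 3 the differences of these 4 genes were 0.80, 0.11, 0.50 and 0.36. Ramp2, a co-receptor for adrenomedullin, differed by -0.20, 0.82, 0.93, -0.09 and -0.32 in mice 1 to 5, or 0.23 ± 0.27 over all. The guidance receptor gene Robo4 differed by -0.43, 0.29, 0.49, 0.07 and -0.15, or 0.05 ± 0.16 over all. S1pr1, the sphingosine 1-phosphate receptor gene, went against the group in mouse 2 and is described after its values were seen. It had 6.04, 5.01, 5.92, 5.37 and 6.05 on denervated arrays 1 to 5 and 6.07, 5.69, 5.53, 5.71 and 5.82 on contralateral arrays 1 to 5. Denervated array 2, the highest of the 10 arrays for 15 members, was the lowest for this gene, and the difference was -0.09 ± 0.20.

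**Figure D3:**
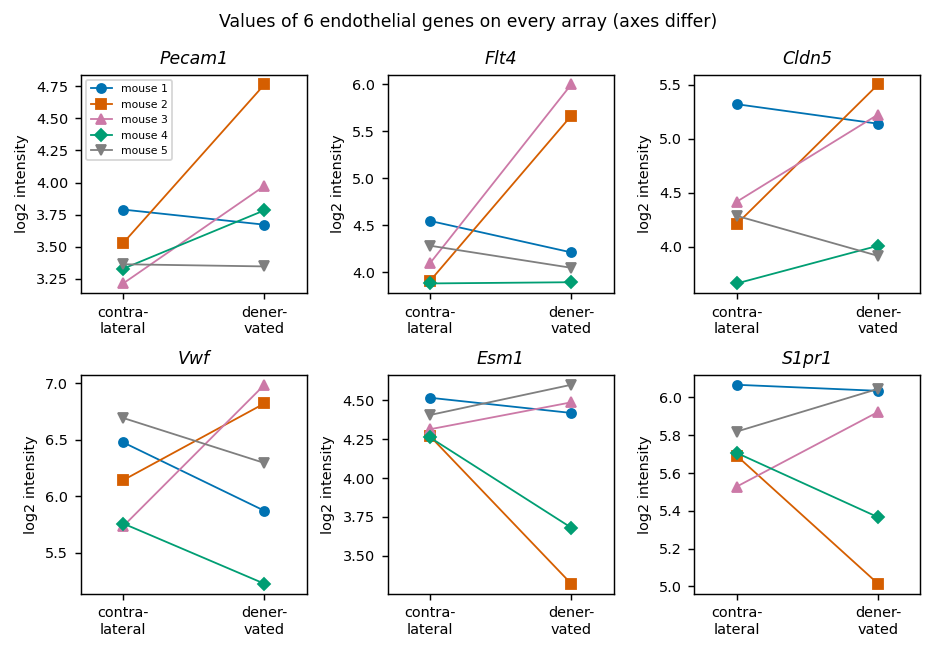
Log2 intensity of 6 endothelial genes on every array, with lines joining the incisors of each mouse (vertical axes differ between panels). Pecam1, Flt4, Cldn5 and Vwf are higher on the denervated side of mice 2 and 3, whereas Esm1 and S1pr1 are lower on that side of mouse 2, at 3.32 and 5.01.

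The means of all 5 transcription factor genes were higher in the denervated arrays, with a median of 0.24, and all 5 were higher in mouse 2 and in mouse 3. Without denervated arrays 2 and 3 the difference stayed above 0 in 3 of 5, with a median of 0.02. Sox18 had 5.12, 5.41, 5.53, 4.76 and 4.90 in denervated and 5.39, 4.53, 4.97, 4.68 and 5.08 in contralateral incisors, a difference of 0.21 ± 0.19. Sox17, a SoxF factor of arterial endothelium, had 4.34, 4.82, 4.31, 3.55 and 3.87 against 3.93, 4.16, 3.77, 3.84 and 3.80, a difference of 0.28 ± 0.20. Sox17 was higher in 4 of 5 mice, and Sox18 in 3. The other Sox17 probe set, with a mean of 2.62, differed by 0.16 but was lower in mouse 1 (-0.22, against 0.41 for the probe set used). Erg had 4.20, 4.33, 4.96, 3.94 and 4.62 against 4.39, 3.93, 4.41, 4.21 and 3.92, so that mice 2, 3 and 5 were higher and mice 1 and 4 lower (0.24 ± 0.18). Sox7 differed by 0.16 ± 0.21.

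Tal1, a factor of blood and endothelial progenitors, gave a weak signal. Its values were 1.48, 2.01, 1.77, 1.63 and 1.40 on denervated arrays and 1.39, 1.43, 1.45, 1.43 and 1.38 on contralateral arrays. Each denervated value exceeded its own contralateral value, by between 0.02 in mouse 5 and 0.58 in mouse 2. The difference of 0.24 ± 0.11 had the smallest unadjusted p of the members, 0.0461 (adjusted p = 0.790, limma).

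The letters before the start sites of members were also searched for factor motifs. The RefSeq promoter table (GRCm38.p6) held 23 start sites of 18 members. The 250 bases before each start were searched on both strands for the Ets core forms AGGAAG or CGGAAG and the Sox forms ACAATG or ACAAAG. An Ets form was present at 11 of the 23 member sites, 47.8%, and at 39.2% of 32851 sites in the table. A Sox form was present at 6 of the 23, 26.1%, against 25.2% of all. The windows shown are that of Erg, itself an Ets factor, and 3 of those with several Ets forms, chosen after the matches were seen. They are printed 5′ to 3′ on the strand of the gene, with Ets forms of either strand in capitals (CTTCCT is AGGAAG on the other strand). Of the 3 Erg start sites listed, this is the 1 with an Ets form. A match is only a run of letters, and binding was not measured.
Erg, chr16:95459349-95459598, minus strand: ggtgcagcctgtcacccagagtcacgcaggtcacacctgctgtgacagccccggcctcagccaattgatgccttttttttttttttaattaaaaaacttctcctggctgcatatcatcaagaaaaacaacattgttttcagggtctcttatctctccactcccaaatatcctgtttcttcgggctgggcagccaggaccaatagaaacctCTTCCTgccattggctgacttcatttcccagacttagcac
Egfl7, chr2:26580833-26581082, plus strand: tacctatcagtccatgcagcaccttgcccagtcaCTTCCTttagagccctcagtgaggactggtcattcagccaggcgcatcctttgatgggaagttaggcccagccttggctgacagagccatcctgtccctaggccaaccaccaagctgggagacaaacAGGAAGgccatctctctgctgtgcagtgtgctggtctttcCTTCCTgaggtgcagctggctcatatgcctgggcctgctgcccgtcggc
Eng, chr2:32646345-32646594, plus strand: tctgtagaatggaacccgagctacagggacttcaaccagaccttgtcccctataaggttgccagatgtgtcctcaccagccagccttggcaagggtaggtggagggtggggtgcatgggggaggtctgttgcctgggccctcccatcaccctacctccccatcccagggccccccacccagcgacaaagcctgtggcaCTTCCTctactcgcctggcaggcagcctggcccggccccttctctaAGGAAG
Emcn, chr3:137340828-137341077, plus strand: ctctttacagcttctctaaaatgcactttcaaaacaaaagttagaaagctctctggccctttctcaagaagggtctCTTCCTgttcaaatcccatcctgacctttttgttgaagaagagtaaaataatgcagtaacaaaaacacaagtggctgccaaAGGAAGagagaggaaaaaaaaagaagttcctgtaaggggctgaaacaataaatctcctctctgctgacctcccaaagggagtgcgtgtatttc

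Of these 4 genes Egfl7 and Eng had differences of 0.79 and 0.78 in mouse 2 and 0.64 and 0.67 in mouse 3. Erg had 0.40 and 0.55 there, and Emcn, which also holds Ets forms, 0.10 and 0.21. Tie1 and Flt1, not printed, hold 2 Ets forms each and had 0.67 and 0.12 in mouse 2 and 0.36 and 0.11 in mouse 3. Flt4 and Cldn5, whose differences in mice 2 and 3 were among the largest, held 0 Ets and 0 Sox forms in these windows. Whether these forms relate to the differences was not tested.

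Of the genes of secreted products 4 of 6 had a higher mean and 2 a lower one, with a median of 0.11. In mouse 4 all 6 were lower. Vwf, von Willebrand factor of endothelial storage granules and platelets, had 5.87, 6.82, 6.99, 5.22 and 6.30 in denervated and 6.48, 6.14, 5.73, 5.76 and 6.69 in contralateral incisors of mice 1 to 5. The sides differed by 0.68 and 1.25 in mice 2 and 3 and by -0.61, -0.53 and -0.40 in mice 1, 4 and 5. Opposite signs nearly cancelled, and the difference was 0.08 ± 0.32. Mmrn2, an endothelial matrix protein that binds CD93, had 6.41, 7.13, 6.56, 5.93 and 6.44 against 6.65, 6.24, 5.96, 6.33 and 6.50, a difference of 0.16 ± 0.20, and its 3 other probe sets gave 0.15, 0.27 and 0.22. Egfl7, a secreted factor that guides tube formation, differed by 0.18 ± 0.24. Its other probe sets, with means of 5.07, 4.21 and 3.71, gave 0.24, 0.40 and -0.04. The last of them was not higher in mice 2 and 3 (-0.19 and -0.009).

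Apln, the apelin gene of sprouting tip cells, was low at 2.74, 2.44, 2.64, 2.53 and 2.68 in denervated and 2.41, 2.16, 2.28, 2.72 and 2.71 in contralateral incisors, with a difference of 0.15 ± 0.12. Mmrn1, a protein of platelets and lymphatic endothelium, was near background at 1.05, 1.11, 1.23, 0.78 and 1.03 against 0.96, 1.20, 1.38, 1.21 and 1.32, with a difference of -0.18 ± 0.10. Esm1, another tip cell gene that responds to VEGF, is described after its values were seen. It had 4.42, 3.32, 4.49, 3.68 and 4.60 in denervated and 4.52, 4.27, 4.31, 4.26 and 4.41 in contralateral incisors. The contralateral values were tight (SD 0.11), and denervated arrays 2 and 4 lay below all other arrays, for a difference of -0.25 ± 0.23. In mouse 2 Esm1 and S1pr1 thus had differences of -0.95 and -0.68, while the median over all members was 0.46.

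The 3 genes of nitric oxide synthesis and capillary exchange were all higher in mice 2 and 3 and all lower in mice 1 and 5. Nos3, the endothelial nitric oxide synthase gene, had 2.54, 3.23, 2.95, 2.05 and 2.11 in denervated and 2.74, 2.26, 2.28, 2.07 and 2.16 in contralateral incisors, a difference of 0.27 ± 0.22. Plvap, which forms the diaphragms of fenestrated capillaries, had 6.67, 7.04, 7.33, 6.67 and 6.72 against 6.96, 6.76, 6.76, 6.67 and 7.21, a difference of 0.01 (-0.31 to 0.34). The sides of mouse 4 were level for Plvap. Gpihbp1, which carries lipoprotein lipase to the capillary surface, had the widest spread of within-mouse differences of the 3. Its values were 3.28, 3.62, 3.28, 2.53 and 2.81 against 3.31, 3.36, 3.03, 2.20 and 3.75, with differences of 0.33 in mouse 4 and -0.94 in mouse 5 and -0.03 ± 0.28 over all.

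**Figure D4:**
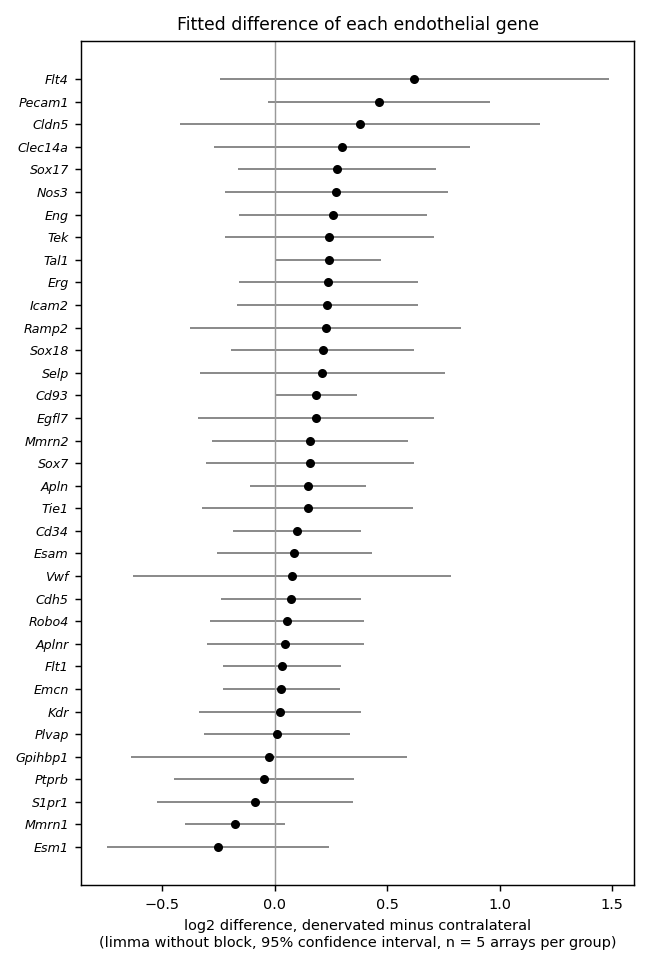
Fitted log2 difference, denervated minus contralateral, of each endothelial gene with its 95% confidence interval (limma without block, n = 5 arrays per group). Points run from -0.25 for Esm1 to 0.62 for Flt4, the intervals overlap one another widely, and those of Tal1 and Cd93 are the ones that stop short of 0 before adjustment.

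Probe sets of the same gene did not always have the same direction. Of the 15 members with several probe sets, all had the same direction in 5. Of the 26 other probe sets 12 had a mean below 2. Of the 14 with a mean of at least 2, 9 were higher in both mouse 2 and mouse 3. Flt1 and Clec14a, picked after their values were seen, are examples. For Flt1 a probe set with a mean of 3.38 differed by -0.38, with -0.95 in mouse 2 and -0.40 in mouse 3, against 0.12 and 0.11 for the probe set used. For Clec14a, a C-type lectin of endothelium, the probe sets gave 0.30 and -0.10 over all, although both were higher in mice 2 and 3.

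Other endothelial genes, chosen like the members with earlier results of these data known and not overlapping them, also differed most in mice 2 and 3. In the other mice their score was near level. There 31, 33 and 30 of 64 genes were higher in mice 1, 4 and 5, against 46.1%, 52.4% and 48.1% of all genes. The medians in those mice were -0.0072, 0.02 and -0.02. Of 64 measured genes 52 had a higher mean, with a median of 0.17, 0 past the threshold with or without the block, and 9 at an unadjusted p under 0.05 without the block (6.21% of all genes) and 15 with it (9.92%). Their score differed by 0.0053, 0.43, 0.43, 0.02 and 0.02 in mice 1 to 5, and without denervated arrays 2 and 3 their median was 0.03, with 38 of 64 higher. Of 29 core endothelial genes 25 were higher, with score differences of -0.03, 0.47, 0.47, -0.02 and -0.03 in mice 1 to 5. The venous list had 7 of 8 higher and the arterial list 9 of 12, the capillary list 8 of 10 and the lymphatic list 3 of 5. In mice 2 and 3 the score differences were 0.43 and 0.72 for the venous, 0.27 and 0.26 for the arterial, 0.49 and 0.22 for the capillary and 0.45 and 0.50 for the lymphatic list. In mice 1, 4 and 5 they were -0.10, -0.08 and -0.05 for the venous list. For the arterial list they were 0.03, 0.09 and 0.04, for the capillary 0.06, 0.08 and 0.12 and for the lymphatic 0.23, 0.09 and 0.12. Of the lymphatic list Lyve1 had 1.40 and 2.63 in mice 2 and 3, where 3 of 5 genes were higher. Whether these lists differ from one another was not tested.

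Several lists of markers of other cells also differed more in mice 2 and 3, or in either of them, than in the rest. Pericyte and smooth muscle genes, which cover vessels from outside, were higher on average in 11 of 12, with score differences of 0.11, 0.99, 0.73, 0.16 and -0.03 in mice 1 to 5. Their summed level (log2 of the summed linear intensities) ran from 11.06 to 11.81 in denervated and from 10.89 to 11.06 in contralateral arrays. The pericyte genes Rgs5 and Pdgfrb were higher in 5 of 5 mice, by 0.31 ± 0.10 and 0.33 ± 0.10, which no member but Tal1 was. Macrophage genes were higher in 12 of 12, with 0.22, 0.78, 0.96, 0.17 and 0.31 and summed levels of 10.44 to 11.25 against 10.22 to 10.41. Without denervated arrays 2 and 3 the medians of these 2 lists were 0.12 and 0.25, while that of the endothelial genes was -0.08. The receptor genes Csf1r and Fcgr1 of macrophages differed by 0.30 ± 0.15 and 0.64 ± 0.12.

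Myelinating Schwann cell genes were higher in 8 of 9, with 2.18 in mouse 2 and 0.64 in mouse 3 and summed levels of 8.33 to 10.55 against 8.28 to 8.73. Dental epithelium genes were higher in 1 of 12, with -2.40 in mouse 3 and summed levels of 11.91 to 14.51 against 14.36 to 14.54. Odontoblast genes were higher in 1 of 7, with -0.75 in mouse 2 and summed levels of 14.19 to 14.77 against 14.64 to 14.73. Without denervated arrays 2 and 3 the Schwann cell list was higher in 5 of 9 (median 0.02), the epithelium list in 7 of 12 (median 0.01) and the odontoblast list in 1 of 7 (median -0.105). The list of platelet and megakaryocyte genes, cells that share Pecam1, Vwf, Selp and Mmrn1 with endothelium, was higher in 5 of 7, with 0.20 and 0.42 in mice 2 and 3 and summed levels of 5.82 to 6.78 against 5.60 to 6.07. Of its genes Itga2b, Gp9 and Gp5 had means of 1.94, 1.14 and 0.85. Gp1bb, a platelet glycoprotein gene, had a mean of 4.02 and differed by 0.21 ± 0.18, with 0.45 and 0.55 in mice 2 and 3. Pf4, also made by macrophages, differed by 0.63 ± 0.25. All 4 red cell genes had means below 2, Hba-a1 among them at 0.94, with 2 of 4 higher and summed levels of 2.98 to 3.95 against 3.31 to 3.56. Skeletal muscle genes were higher in 3 of 8, 7 of them with means below 2, with summed levels of 4.16 to 4.32 against 4.16 to 4.39. The part of these cells in the endothelial result was not tested. The 3′ minus 5′ signal of the Actb control probe sets was 2.02 and 1.98 on denervated arrays 2 and 3, within the range of 1.77 to 2.25 of the contralateral arrays.

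**Figure D5:**
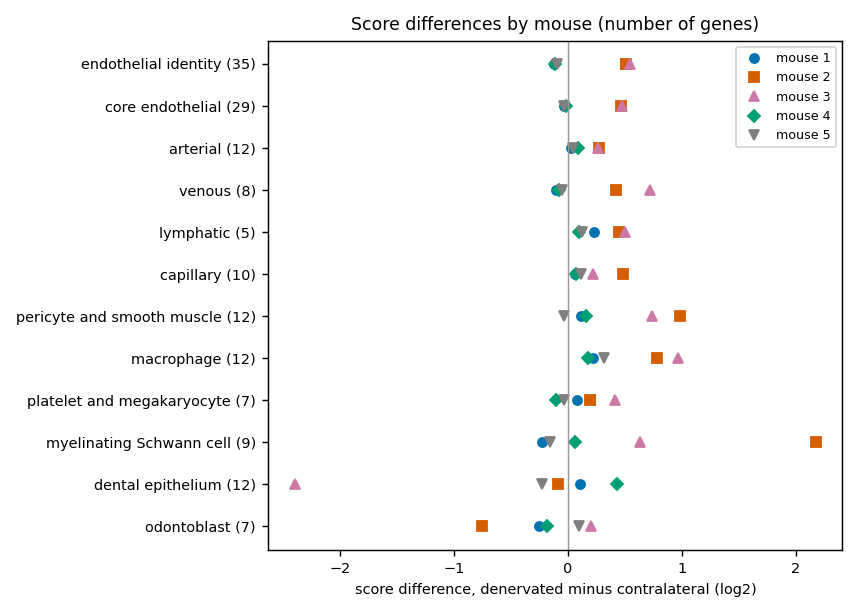
Score difference, denervated minus contralateral (log2), by mouse for the 35 endothelial identity genes and 11 other lists, with the number of measured genes in brackets. Mice 2 and 3 are the 2 rightmost points for the endothelial, pericyte and smooth muscle, macrophage and Schwann cell lists, while mouse 3 lies at -2.40 for dental epithelium and mouse 2 at -0.75 for odontoblasts.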

How the data were processed

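Each of the 10 arrays was deposited as log2 signal intensities, 1 per probe set, and the authors used RMA, per the submitters' processing notes, with no version or variant given there. They were used as deposited. Background treatment therefore stays unknown, and differences between low values may be compressed. Of 45037 probe sets other than controls, 34945 name 1 gene symbol, 932 several and 9160 none. All 35 members matched RefSeq by Entrez identifier.

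Groups were compared with limma 3.58.1 in R 4.3.3 (lmFit, eBayes, no block), with Benjamini-Hochberg adjustment over 18193 genes and a threshold of 0.05. Members and lists were chosen with earlier results of these data known. Members given on every array are, per role, the 2 with the highest mean, the 2 with the smallest p and the 1 with the widest spread of within-mouse differences. Of other lists at most 2 genes are named by mean and p. Dspp, Hba-a1, Lyve1, Itga2b, Gp1bb, Gp9 and Gp5 are named outside this rule.

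The design text names 5 mice. Deviations from group means correlated between 0.18 and 0.57 in same-numbered pairs and between -0.41 and 0.22 in others, so equal numbers were taken to pair samples. The closest contralateral match was the equal number for 4 of 5 denervated arrays, but contralateral array 1 for denervated array 3 (0.22 against 0.18). Alternatives were the block, each array left out, other scalings, a minimum mean of 4, the mean over probe sets and limma's trend and robust options. The fit was tested on simulated data. The number of arrays limits the precision, and depth does not apply.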

Additional observations from a re-analysis of the deposited data

Results flagged for a closer look

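A single array lay far from the other 4 of its group in 4 of 102 groups examined (Dixon's test at the 95% level, over the members, their score and 15 other genes), where chance flags about 1 in 20. The genes examined did not include Ambn, which had 9.61 on denervated array 3 and at least 12.91 elsewhere. Tek, the TIE2 gene, had 4.05 on contralateral array 5, against 4.78 for the next lowest contralateral array. Without that array the difference of Tek was 0.07, against 0.24 with it. The water channel gene Aqp1 had 7.88 on contralateral array 5, against 8.16 for the next. The lipid-binding protein gene Fabp4 had 6.34 on denervated array 2, against 5.37 for the next. Prox1, the lymphatic factor gene, had 1.59 on contralateral array 3, against 0.98 for the next, where the signal was weak.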

How the results depend on the processing

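The fit with the mouse as a replicate block, which uses the pairing of equal numbers, called 0 genes and 0 members (smallest adjusted p 0.234 for all genes and 0.468 for members) and left 30 of 35 members higher with a median difference of 0.16. It raised the genes at an unadjusted p under 0.05 from 1129 to 1805 and the members from 2 to 3, and it changed no other call. In all 18 alternatives 0 genes passed the adjusted threshold, and the members' smallest adjusted p ran from 0.468 to 1.0. The members with a higher mean numbered 10 of 35 without denervated arrays 2 and 3, 8 of 35 without both arrays of mice 2 and 3 (both chosen after seeing the data), and 19 of the 22 left by a minimum mean of 4, where fewer genes were counted. Leaving out single arrays gave 21 to 32. In the 17 alternatives computed for single genes, which do not include leaving out both arrays of mice 2 and 3, the sign stayed the same for Pecam1, Icam2, Cd93, Tek, Erg, Sox17, Tal1, Mmrn1, Esm1 and Apln, and turned in at least 1 for the other 25 members. Icam2, Tek and Sox17 came close to 0, with lowest values of 0.0001, 0.0079 and 0.022. The causes were not tested.

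Without denervated arrays 2 and 3 the differences that turned were Cdh5 -0.15, Cldn5 -0.024, Esam -0.17, Emcn -0.015, Clec14a -0.012, Cd34 -0.079, Selp -0.22, Kdr -0.20, Flt1 -0.12, Flt4 -0.092, Tie1 -0.19, Eng -0.080, Robo4 -0.14, S1pr1 0.053, Ramp2 -0.22, Sox7 -0.058, Sox18 -0.0029, Vwf -0.36, Egfl7 -0.20, Mmrn2 -0.076, Nos3 -0.068, Plvap -0.19, Aqp1 -0.050 and Pdpn 0.13. Averaging all probe sets of a gene gave Cdh5 -0.0015, Flt1 -0.10, Ptprb 0.016 and Aplnr -0.026. Median centring gave Cdh5 -0.027, Esam -0.011, Emcn -0.068, Kdr -0.075, Flt1 -0.066, Robo4 -0.044, Aplnr -0.052, Vwf -0.020, Plvap -0.087 and Aqp1 -0.0029. Quantile normalization gave Emcn -0.022, Kdr -0.071, Flt1 -0.063, Robo4 -0.039 and Plvap -0.025. Leaving out single arrays turned the sign within these ranges: Cdh5 -0.023 to 0.16, Esam -0.015 to 0.20, Emcn -0.026 to 0.10, Kdr -0.081 to 0.11, Flt1 -0.040 to 0.095, Tie1 -0.022 to 0.31, Ptprb -0.20 to 0.062, Robo4 -0.030 to 0.13, S1pr1 -0.18 to 0.080, Aplnr -0.090 to 0.11, Sox7 -0.010 to 0.31, Vwf -0.11 to 0.33, Mmrn2 -0.0013 to 0.30, Plvap -0.10 to 0.10, Gpihbp1 -0.26 to 0.13, Aqp1 -0.029 to 0.17 and Pdpn -0.33 to 0.0006.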

Other observations

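Among endothelial genes outside the members, Fabp4, which carries fatty acids in capillary endothelium, fat cells and macrophages, separated the sides. It had 5.37, 6.34, 5.22, 5.05 and 5.07 on denervated arrays 1 to 5 and 4.69, 3.59, 3.79, 4.86 and 4.46 on contralateral arrays 1 to 5. All denervated values lay above all contralateral ones, as for 0.528% of all genes, with a difference of 1.13 ± 0.30 (adjusted p = 0.790, limma, and 0.419 with the block). Lyve1, a hyaluronan receptor of lymphatic vessels and some macrophages, is named after its values were seen. It was higher in 5 of 5 mice, by 1.47, 1.40, 2.63, 0.45 and 1.61, with a difference of 1.51 ± 0.72 (adjusted p = 0.790, and 0.259 with the block). Prox1, which sets lymphatic identity, stayed below 2 on every array and was lower on all denervated arrays (0.54 to 0.87) than on all contralateral arrays (0.89 to 1.59), as for 0.423% of all genes. It differed by -0.32 ± 0.13 (adjusted p = 0.790, and 0.428 with the block), and Pdpn, a surface protein of lymphatic vessels and other cells, by -0.19 ± 0.29.

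Thbd, the thrombomodulin gene of the vessel surface, differed by 0.36 ± 0.12 and was higher in 4 of 5 mice, while Plxnd1, a semaphorin receptor gene, differed by 0.26 ± 0.14. The venous and activation marker Vcam1 ran from 6.12 to 7.13 on denervated and from 6.07 to 6.61 on contralateral arrays, with a difference of 0.47 ± 0.18. Of the arterial list the Notch target Hey1 differed by 0.24 ± 0.12, and the Notch ligand gene Jag2 by -0.42 ± 0.15, with -0.74 and -1.01 in mice 2 and 3. The water channel gene Aqp1 differed by 0.10 ± 0.14. None of these genes passed the adjusted threshold.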
